A study of Danio rerio with 17 samples.

Results

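In the zebrafish liver, 105 genes were nearly silent after a sham operation and expressed at 1 day post-cryoinjury (dpci). A gene was taken as silent where its mean over the 5 sham samples was below 1 CPM (the authors' count per sample scaled to a common total), and as on where its mean over the 4 samples at 1 dpci was at least 5 CPM. These 105 were 1.23% of the 8513 entries in the authors' table and 37.8% of the 278 entries that were silent in sham. Of the other entries silent in sham, 79 had a mean of 1 to 5 CPM at 1 dpci and 94 had a mean below 1 CPM. The sham and 1 dpci values chose the genes, so they are given here as a description without a test.

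Adult livers were analysed by bulk RNA-seq in 17 samples, of which 5 were sham operated and 4 each were collected at 1, 3 and 7 dpci. In the cryoinjury a probe cooled in liquid nitrogen was laid on the ventral lobe, and in the sham operation the probe was thawed. The methods describe *Tg(fabp10a:NLS-mCherry)* fish, in which a hepatocyte promoter drives a red nuclear reporter, in all groups, and pools of 3 livers per tube. The study describes the replicates as pools of livers in one place and as technical replicates in another, so P values and SDs measure the spread between these samples, which may be technical, and the age and sex of the fish are not in the labels. The methods also describe separate collection of the injured border and of tissue from other lobes, and the labels used here do not name the lobe of a sample, so lobe and replicate cannot be told apart.

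Freezing kills the tissue under the probe, and the surrounding tissue must stop bleeding, attract leukocytes and start to regrow. In a wounded vertebrate tissue the first genes to be transcribed encode transcription factors of the AP-1 and NF-κB systems, heat-shock proteins and DNA-damage response proteins. They are followed by secreted cytokines and growth factors, which act on neighbouring cells, and by genes for junctions, matrix and the cytoskeleton. Many of these genes are kept almost off in the resting liver, which is mostly made of hepatocytes devoted to plasma proteins, bile acids and lipid metabolism.

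The depth was 4743533 to 6800961 counts per sample, and 3 counts corresponded on average to 0.516 CPM in sham and 0.587 CPM at 1 dpci, a limit that covers counting error only. Mitochondrial entries, 17 in number, held 43.0 to 48.2% of all sham counts and 28.7 to 39.2% of those at 1 dpci, and a CPM of any other gene falls as this share rises. The TMM factors, which adjust for such differences in composition, were 0.608 to 1.03 in sham and 1.2 to 1.69 at 1 dpci. Summed over 9 hepatocyte genes, the level was 114800 to 130800 CPM in sham and 63090 to 110600 CPM at 1 dpci, so the defining genes of the labelled organ were strongly expressed in both groups. The median log2 fold change of all tested genes between 1 dpci and sham was 0.84 with column totals and −0.02 with the TMM factors. A level in bulk RNA does not tell more cells of a type apart from more RNA per cell, and levels are not compared between genes here because CPM is not corrected for gene length.

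Scaling decided whether many of the weaker genes fell inside the limits. With TMM-scaled library sizes the sham means of the 105 genes were a median of 1.24 times, and their 1 dpci means a median of 0.711 times, the authors' CPM, and 51 of the 105 stayed inside both limits. Of the others, 36 fell below 5 CPM at 1 dpci and 30 rose to 1 CPM or more in sham, some doing both. The 15 genes with the highest CPM at 1 dpci were less affected, and 12 of them stayed inside, the exceptions being *cldnb*, *snap23.2* and *fosl1a*. Levels below are the authors' CPM. Where related genes have near-identical stretches, their reads may be split or shared in the counting. This may bear on *hsp70l*, *fthl31*, *snap23.2*, *tmem176l.2* and the *gadd45* genes, whose sequences were not compared.

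**Figure D1:**
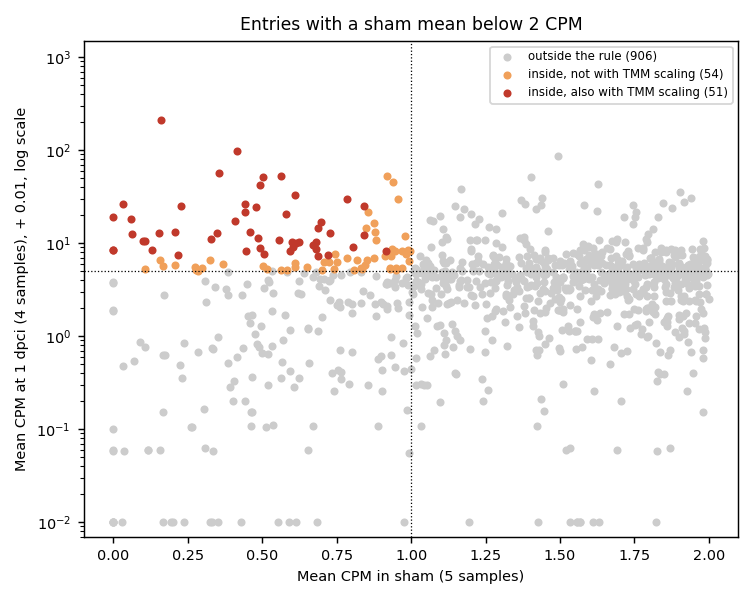
Mean CPM in sham (horizontal axis) against mean CPM at 1 dpci (vertical axis, log scale, 0.01 added) for every entry with a sham mean below 2 CPM; dotted lines mark 1 CPM in sham and 5 CPM at 1 dpci. The 105 genes lie in the upper left field, 51 of them (dark) also when CPM is scaled with TMM factors.

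The genes had very few reads in sham. Over all 5 sham samples the 105 genes had between 0 and 29 counts in total, with a median of 18, and at 1 dpci between 103 and 4264 counts, with a median of 174. Their mean at 1 dpci ranged from 5.003 to 212.9 CPM with a median of 8.446 CPM: 60 genes lay below 10 CPM, 45 at 10 CPM or more and 6 at 50 CPM or more. In 93 genes (88.6%) the lowest 1 dpci sample lay above the highest sham sample, against 31.9% of all entries in the table, a contrast that the choice of the genes partly fixes. The exceptions were *hsp70l*, *scpp8*, *si:dkey-30c15.10*, *ddit4*, *CT027832.1*, *bmb*, *si:ch73-234b20.5*, *ptprsb*, *raly*, *LOC100149773*, *c1ql1a* and *hs3st1l2*. With TMM scaling the groups were separate in this way for 76 of the 105 and for 10.8% of all entries. The TMM-scaled mean at 1 dpci was above the sham mean for all 105, which follows from the limits of the rule and is no added support. Nearest to the limits, *hs3st1l2* (5.003 CPM) and *rab3db* (5.07 CPM) were just inside and *melk* (4.95 CPM) and *il17rc* (4.91 CPM) just outside at 1 dpci. On the sham side, *pigf* (0.998 CPM) and *CABZ01087629.1* (0.993 CPM) were just inside and *grik1a* (1.01 CPM) and *zgc:153911* (1.02 CPM) just outside. A further 733 entries had a sham mean of 1 to 2 CPM, so the sham limit crossed a dense part of the table.

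In the RefSeq gene table, 97 of the 105 matched by name or identifier: 93 protein-coding genes, 2 microRNAs and 2 long non-coding RNAs. A role from general knowledge was given to 81 genes after the list was known, and 24 were left without one. The largest group held 15 genes of junctions, matrix, cell surface and cytoskeleton, followed by 12 of metabolism, lipids and iron, 11 secreted ligands and inhibitors and 10 transcription factors and chromatin proteins. There were 9 receptors, channels and signalling proteins, 8 stress-response and folding proteins, 8 proteins of vesicle traffic, 6 of RNA and translation, and the 2 microRNA entries. In all 4 samples at 1 dpci, 88.6% of the 105 and 31.9% of all entries lay above every sham sample. The choice of the genes partly fixes this, so such counts below are not traits of a role.

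**Figure D2:**
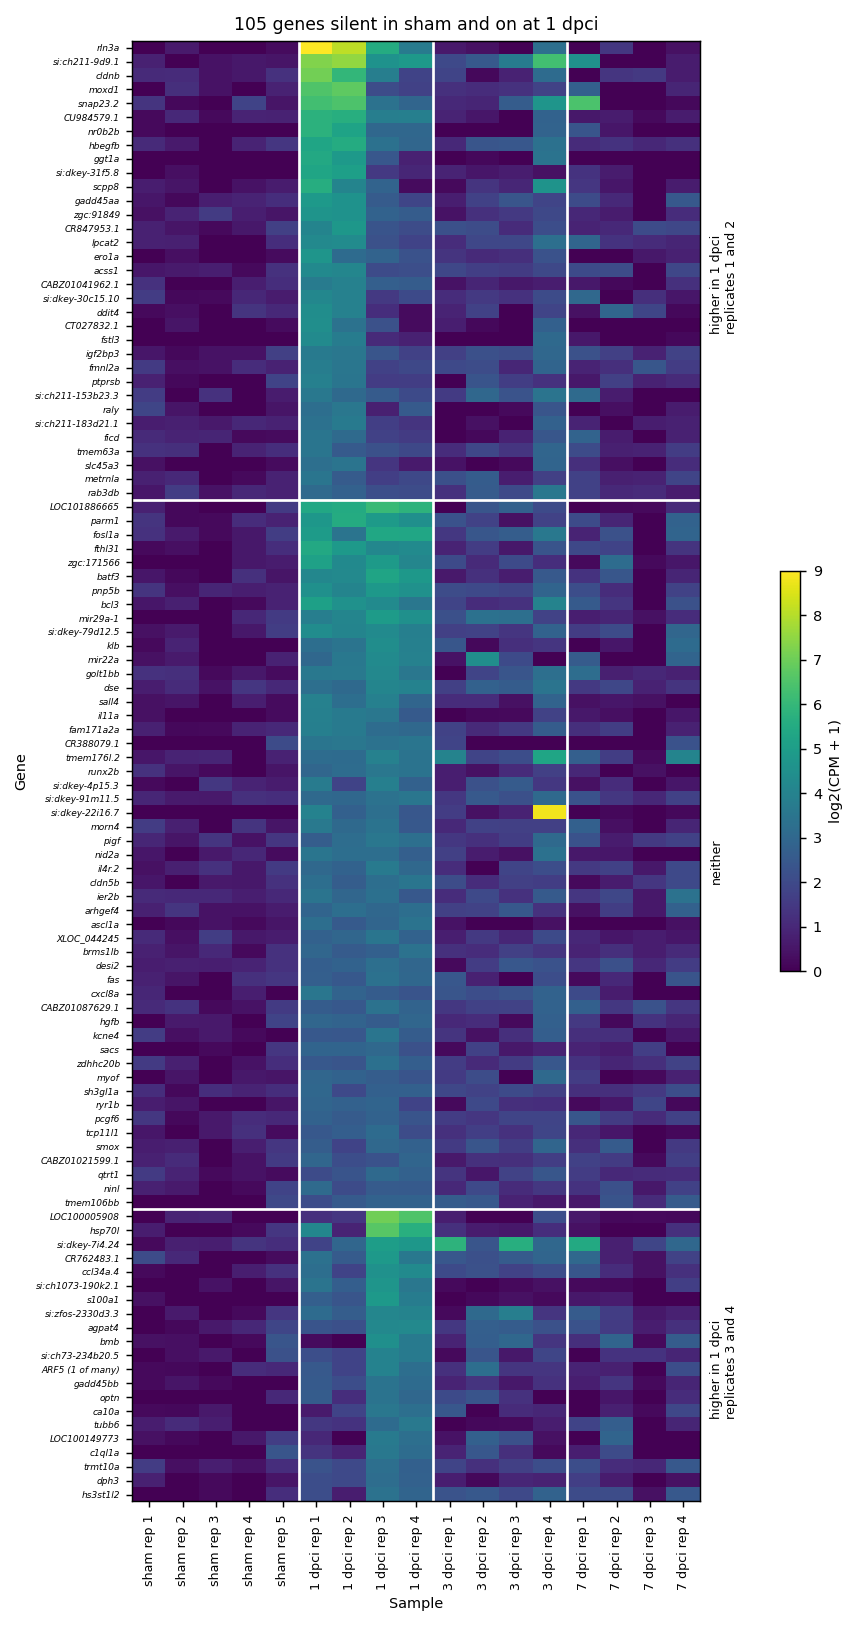
The 105 genes (rows) in the 17 samples (columns), coloured by log2(CPM + 1) and split by whether 1 dpci replicates 1 and 2 or replicates 3 and 4 were higher. All 4 columns at 1 dpci are brighter than the sham columns, and the upper block of 33 genes and the lower block of 21 are bright in opposite pairs of 1 dpci samples.

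Secreted ligands numbered 11, of which 10 lay above every sham sample at 1 dpci, as did 88.6% of the 105. None of the 11 was on at 3 or 7 dpci, when only 14 and 4 of the 105 were. The metabolic, receptor, stress and RNA groups also had 0 genes on at both times, so this is no trait of the ligands. *rln3a*, which encodes a relaxin-family peptide known in mammals mainly from the brain, had 0, 0.588, 0, 0 and 0.208 CPM in the 5 sham samples and 516.8, 276.8, 45.5 and 12.3 CPM in the 4 samples at 1 dpci. It was therefore above sham in every 1 dpci sample, but most of its reads came from replicates 1 and 2, and it took 22.6% of the summed CPM of the 105 genes in replicate 1. By 3 dpci it had 0.517, 0.308, 0 and 8.65 CPM, and at 7 dpci 0, 1.78, 0 and 0.308 CPM. Only replicate 4 at 3 dpci still showed a clear level. *gdf15* (entry *LOC101886665*), a stress-induced cytokine of the TGF-β superfamily, was more even, with 41.5, 44.7, 67.9 and 54.8 CPM at 1 dpci against 0.790, 0.147, 0, 0 and 1.87 CPM in sham. No 3 dpci sample exceeded 5.85 CPM and no 7 dpci sample exceeded 1.078 CPM, so all injured groups after 1 dpci lay far below its first-day level.

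Growth factors that act on epithelial cells were among the ligands. *hbegfb*, a ligand of the EGF receptor, had 38.59, 45.3, 9.15 and 6.92 CPM at 1 dpci and at most 1.67 CPM in sham. *hgfb*, a zebrafish gene for Hgf, the hepatocyte mitogen that binds Met, was one of the 5 most even genes, at 6.86, 6.32, 5.12 and 6.92 CPM, whereas its highest sham sample had 2.50 CPM. *il11a*, a cytokine that signals through gp130 as Il6 does, had 14.3, 12.2, 10.8 and 4.81 CPM at 1 dpci and at most 0.316 CPM in sham. In all 3 genes the 1 dpci and sham samples did not overlap, with a split between replicate pairs for *hbegfb* only. *fstl3*, a secreted inhibitor of activins, was without a count in sham and had 19.002, 12.9, 1.098 and 0.769 CPM at 1 dpci. Its 1 dpci mean was at least 16.3-fold higher than the sham floor of 3 counts per sample, although replicates 3 and 4 rested on 6 and 4 counts. *metrnla*, which encodes a secreted meteorin-like protein, and *c1ql1a*, of the C1q-like family, were weak, with means of 5.08 and 5.41 CPM. *c1ql1a* reached 4.16 CPM in sham replicate 5 and 0 in the other sham samples.

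Chemokines were present at low levels. *cxcl8a*, whose product attracts neutrophils, had 10.6, 6.32, 5.12 and 4.04 CPM at 1 dpci, and in sham 0.948, 0, 0, 0.680 and 0 CPM. *ccl34a.4* had 8.62, 2.53, 22.7 and 18.8 CPM and the growth-regulated alpha protein-like gene *CR762483.1* (RefSeq *cxcl-c13b*) had 9.21, 5.06, 27.8 and 11.2 CPM. The latter pair was higher in replicates 3 and 4, and *cxcl8a* was not. The list of inflammatory ligands and receptors held 33 genes in the table, of which *cxcl8a*, *ccl34a.4* and *il11a* belonged to the 105. Of its 30 others, 10 were higher and 3 lower at 1 dpci than in sham by edgeR's quasi-likelihood test (log2 fold change of 1.5, Benjamini-Hochberg adjusted P of 0.05), against 4.48% and 9.82% of all genes tested. This list and the later ones were chosen with earlier results of these data known. The contrast also uses the samples that chose the 105, so the list counts are a description. With column totals 14 were higher and 2 lower, and with 1 sample left out 7 to 10 were higher and 2 to 3 lower. One of the 10 was *hamp*, the iron hormone hepcidin, at 196.3 ± 105.7 CPM (SD, n = 4) at 1 dpci against 3.40 ± 2.57 CPM (SD, n = 5) in sham.

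Of the list of hormones, growth factors and their binding proteins, 28 genes were found in the table by entry name. *gdf15* was listed too, but its entry *LOC101886665* was not matched by name and is outside these counts. Of the 28, *rln3a*, *fstl3*, *hbegfb*, *hgfb* and *metrnla* were among the 105. Of the 22 others tested, 2 were higher at 1 dpci and 5 were lower, against 4.48% and 9.82% of all genes tested. The count of lower genes fell to 3 without 1 dpci replicate 1, 2 or 3 and to 1 with column totals.

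Receptors, channels and signalling genes numbered 9, and 8 of them lay above every sham sample at 1 dpci. *klb*, β-Klotho, the co-receptor that lets FGF receptors on hepatocytes bind endocrine FGFs, had 8.62, 9.91, 20.1 and 14.2 CPM at 1 dpci against 0.158, 0.882, 0, 0 and 0 CPM in sham. It was one of only 10 genes with every sham sample below 1 CPM and every 1 dpci sample at 5 CPM or more. The others ranged from 5.20 to 8.19 CPM in mean and included *il4r.2*, a subunit of the interleukin 4 receptor, *fas*, a death receptor, *optn*, an autophagy receptor, *ryr1b*, a calcium-release channel, *kcne4* and *tmem63a*, and a receptor-interacting kinase-like entry (*CABZ01021599.1*). Only *klb* and *ptprsb* stayed inside the limits with TMM scaling.

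Transcription factors had the lowest median coefficient of variation (CV, SD over mean) of the role groups, 0.34, with 0.35 in the vesicle group next. All 10 were higher at 1 dpci than in any sham sample, and 7 reached 5 CPM in all 4 samples. *fosl1a*, an AP-1 subunit, had 30.0, 9.91, 40.2 and 39.2 CPM at 1 dpci and 1.42, 0.588, 0.177, 0.510 and 2.08 CPM in sham. *batf3*, a bZIP partner of AP-1 proteins, had 17.04, 17.7, 37.3 and 26.7 CPM, and *bcl3*, a nuclear IκB-family coactivator of NF-κB, had 34.1, 22.3, 18.7 and 10.96 CPM. Their sham samples reached at most 1.36 and 0.833 CPM. *sall4*, a zinc-finger factor of embryonic and fetal tissue, *runx2b*, best known from bone, and *ascl1a*, a proneural factor that is induced in the injured zebrafish retina, had means of 10.98, 8.87 and 7.47 CPM at 1 dpci. Each of their 1 dpci samples was above 4.8 CPM and none of their sham samples exceeded 1.42 CPM. *ier2b*, an immediate early gene, *brms1lb*, a corepressor subunit, and *pcgf6*, a Polycomb RING protein, lay between 5.30 and 7.58 CPM.

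The only one with a split between the replicate pairs was *nr0b2b*, a zebrafish gene for Shp, the repressor that in mammals is induced by the bile acid receptor Fxr and turns down bile acid synthesis. It had 53.9, 36.3, 6.95 and 7.12 CPM at 1 dpci and 0.158, 0, 0, 0 and 0 CPM in sham, a single read in 1 sample. The level was about 6.41 times higher in replicates 1 and 2 than in 3 and 4, yet the lowest 1 dpci sample was still above all sham samples. At 3 dpci the values were 0, 0, 0 and 6.25 CPM and at 7 dpci 4.19, 0.445, 0 and 0 CPM, so that 1 sample in each group retained it. The list of Fxr-Shp and bile acid genes held 11 genes in the table. Besides *nr0b2b* and *ggt1a*, none of the 9 others was higher at 1 dpci. Of them, *abcb11b*, the bile salt export pump, was lower (adjusted P = 0.0112, edgeR). Among all genes tested, 4.48% were higher and 9.82% lower, so both counts of this list were near the share of all. Another Shp gene, *nr0b2a*, went the opposite way to *nr0b2b*, with means of 8.634 CPM (SD 6.149) in sham and 2.018 CPM (SD 1.274) at 1 dpci. Its log2 fold change was −3.016 (adjusted P = 0.0509, edgeR), and it was not called lower. This fold change is with TMM factors, so it is larger than the ratio of the 2 CPM means. With column totals in place of TMM factors *abcb11b* was not called, and the lower calls rose to 2 without sham replicate 1 or 3 or 1 dpci replicate 3 or 4.

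Of the 8 stress-response genes none reached 5 CPM in all 4 samples at 1 dpci, and their median CV was 0.801. *hsp70l*, an inducible heat-shock gene whose reads may be shared with near-identical copies, had 16.85, 0.843, 100.6 and 50.2 CPM. Replicate 2 was thus within the sham range of 0 to 1.67 CPM while replicate 3 was more than 100 CPM. *ddit4*, an inhibitor of mTORC1 signalling, showed the reverse order with 20.4, 14.5, 1.28 and 0.192 CPM, and its replicates 3 and 4 overlapped sham. *gadd45aa* had 28.4, 22.8, 4.94 and 2.69 CPM and its relative *gadd45bb* had 4.897, 3.37, 9.88 and 7.88 CPM, both encoding DNA-damage response proteins. The relatives were therefore high in opposite pairs of samples. *ero1a* and *ficd*, which act on disulphide formation and on the chaperone BiP in the endoplasmic reticulum, were higher in replicates 1 and 2, and *sacs*, a giant chaperone, and *si:dkey-4p15.3* (RefSeq *hspa8b*) were in neither class. The list of stress transcription factors and stress genes held 57 genes in the table, with 6 of the 105. Of the 51 others, 21 were higher at 1 dpci and 3 lower by the same edgeR test, against 4.48% and 9.82% of all genes tested. With column totals 29 were higher and 1 lower, and with 1 sample left out 16 to 23 were higher and 2 to 4 lower. The list was chosen with earlier results of these data known, so the difference from all genes is partly built in and is only a description. One of the 21 was *atf3*, an early stress factor, at 185.4 ± 19.2 CPM (SD, n = 4) against 9.24 ± 9.83 CPM (SD, n = 5) in sham.

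Among junction and surface genes, *cldnb*, a claudin of epithelial tight junctions, had 135.8, 60.5, 13.5 and 2.50 CPM at 1 dpci and at most 1.46 CPM in sham, so samples of the same group differed by more than an order of magnitude. *cldn5b*, a claudin best known from endothelium, was low and even at 8.62, 5.27, 8.60 and 10.2 CPM. *parm1*, a mucin-like protein, had 25.9, 44.9, 28.7 and 21.2 CPM. *nid2a*, a basement membrane nidogen, *dse* and *hs3st1l2*, which modify dermatan and heparan sulphate chains, and the cytoskeletal genes *fmnl2a*, *tubb6*, *arhgef4*, *ninl* and *si:dkey-30c15.10* (RefSeq *anln2*) had means of 5.003 to 11.8 CPM. Another 4 genes are of less certain kind: *CU984579.1*, leucine-rich repeat neuronal protein 4-like, at 54.3, 48.7, 13.5 and 13.7 CPM, *zgc:91849* (RefSeq *igsf3l*), at 24.1, 22.98, 6.04 and 5.19 CPM, *LOC100149773*, intestinal mucin-like, and *scpp8*. The group held 6 genes higher in replicates 1 and 2, 3 higher in replicates 3 and 4 and 6 in neither class. In the list of matrix, protease and wound genes, *cldnb* was the only one of 27 genes in the table that belonged to the 105. Of the 25 others tested, 7 were higher and 2 lower at 1 dpci, against 4.48% and 9.82% of all genes tested. With column totals the higher calls rose to 11, and the lower calls fell to 0 with column totals or without sham replicate 2 or 1 dpci replicate 1 or 3, and to 1 without sham replicate 1 or 1 dpci replicate 2.

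In the RefSeq gene order, *parm1*, *CT027832.1* (RefSeq *wu:fk95d07*) and *scpp8*, a secretory calcium-binding phosphoprotein, were direct neighbours. *scpp8* had 47.6, 15.8, 6.22 and 0.192 CPM at 1 dpci and *CT027832.1* had 20.8, 9.49, 3.66 and 0.192 CPM. Both had the same order of samples at 1 dpci, and at 3 dpci both were highest in replicate 4, with 23.5 and 5.76 CPM, whereas *parm1* had 2.40 CPM there. Whether reads of the adjacent entries could be shared was not tested, since strand use in the counting is not given in the sources used here. The only other pair of the 105 within 5 genes of each other was *nid2a* and *ero1a*.

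All 12 metabolic genes lay above every sham sample at 1 dpci, but only 3 reached 5 CPM in all 4 samples. *LOC100005908*, an apolipoprotein A-IV-like gene, had 1.37, 1.69, 133.0 and 90.4 CPM at 1 dpci and *moxd1*, a monooxygenase of the dopamine beta-hydroxylase family, had 90.1, 109.0, 3.29 and 2.31 CPM. They thus marked the pairs of samples in opposite ways, 73.05-fold and 35.55-fold. *ggt1a*, a gamma-glutamyltransferase of glutathione turnover, had no count in sham and 42.3, 28.5, 4.39 and 0.769 CPM at 1 dpci, and its mean was at least 36.8-fold higher than the sham floor. It returned to no count in all 7 dpci samples. *fthl31*, a ferritin heavy chain gene, and *pnp5b*, a purine nucleoside phosphorylase, were present in all 4 samples, at 16.83 to 42.3 CPM and 15.6 to 26.5 CPM. *lpcat2* and *agpat4*, both acyltransferases of phospholipid synthesis, were high in opposite pairs, with 17.8, 19.2, 3.66 and 2.50 CPM and 4.11, 3.58, 17.2 and 17.9 CPM. The others, *acss1*, *pigf*, *ca10a*, *slc45a3* and *smox*, had means of 5.23 to 10.3 CPM. With TMM scaling, the 1 dpci and sham samples of *LOC100005908*, *moxd1* and *ca10a* overlapped.

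Among the 8 vesicle genes was *snap23.2*, a SNARE of membrane fusion, with 76.4, 87.7, 9.51 and 6.73 CPM at 1 dpci. It had 85.9 CPM in replicate 1 at 7 dpci and 0, 0 and 0.154 CPM in the other 7 dpci samples, so its 7 dpci mean rested on 1 sample. The remaining 7 were *golt1bb*, *ARF5 (1 of many)* and *rab3db*, of Golgi and secretory traffic, the palmitoyltransferase gene *zdhhc20b*, *myof*, a ferlin of membrane repair, the endophilin gene *sh3gl1a* and the lysosomal *tmem106bb*, and they had means of 5.07 to 12.7 CPM. The 6 genes of RNA and translation were *igf2bp3*, an RNA-binding protein of fetal tissue, the exportin-like *CABZ01087629.1*, the ribonucleoprotein gene *raly*, the tRNA-modifying *trmt10a* and *qtrt1*, and *dph3*, of diphthamide synthesis. They had means of 5.12 to 7.36 CPM, none reached 5 CPM in all 4 samples, and only *igf2bp3* stayed inside the limits with TMM scaling.

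Both microRNA entries were on in every 1 dpci sample. *mir29a-1* had 13.5, 16.02, 29.8 and 22.1 CPM and *mir22a* had 7.05, 11.2, 18.8 and 14.6 CPM, against at most 1.87 and 0.833 CPM in sham. Such an entry counts RNA-seq reads over the hairpin, which cannot be told apart from a host transcript, and is no measure of the mature microRNA. Of the 24 genes without a role, 21 lay above every sham sample at 1 dpci and 12 were at 5 CPM or more in all 4 samples, with means of 5.28 to 98.03 CPM. *si:ch211-9d9.1* was uneven at 154.2, 187.4, 23.05 and 27.5 CPM, and *zgc:171566* was even at 34.9, 18.1, 29.3 and 16.73 CPM.

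**Figure D3:**
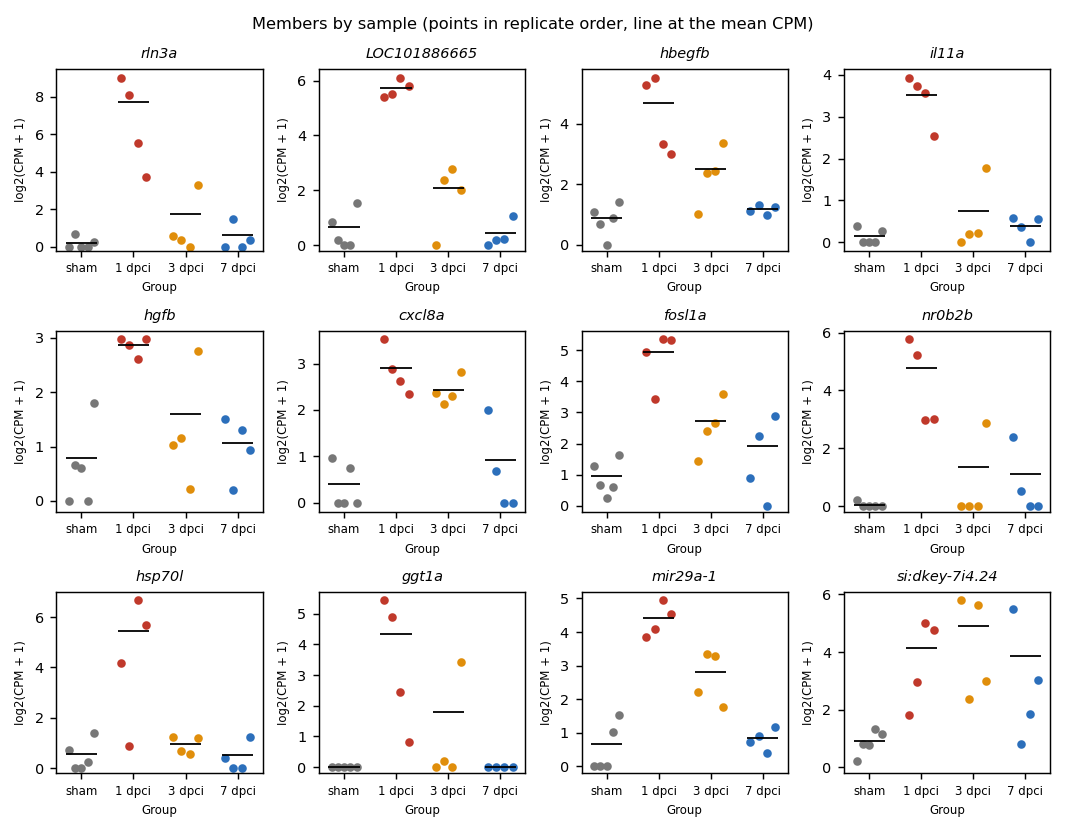
log2(CPM + 1) of 12 of the genes in each sample (points, in replicate order) by group, with a line at log2 of the mean CPM + 1. *LOC101886665* (*gdf15*) and *hgfb* are even at 1 dpci, whereas *rln3a*, *nr0b2b*, *hsp70l* and *ggt1a* are not, and *si:dkey-7i4.24* is as high at 3 dpci as at 1 dpci.

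How evenly the 1 dpci samples expressed the genes depended on the gene. Of the 105, 40 were at 5 CPM or more in all 4 samples, 23 in 3, 40 in 2 and 2 in 1, while 91 were at 1 CPM or more in all 4. The median CV was 0.482, with a range of 0.058 to 1.23, against 0.268 for the 6505 other genes with a mean of at least 5 CPM at 1 dpci. For means of 5 to 10 CPM the median was 0.445 in 60 of these genes and 0.327 in 1838 others, and for means of 10 to 50 CPM it was 0.658 in 39 and 0.253 in 3287. The most even were *CR388079.1* (CV 0.058), *hgfb* (0.132), *arhgef4* (0.135), *si:dkey-79d12.5* (0.16) and *pcgf6* (0.182), and the least even were *bmb* (1.23), *scpp8* (1.21), *LOC100005908* (1.17), *cldnb* (1.14) and *moxd1* (1.1). Leaving each 1 dpci sample out of the choice in turn, 59 to 77.1% of the genes then chosen were at 5 CPM or more in the sample left out, and 90 to 96.9% at 1 CPM or more. Most genes chosen on 3 samples were thus detected in the other one, though not always at the limit. Replicates 1 and 2 resembled each other, as did replicates 3 and 4, so each choice kept a sample like the one left out. The shares are therefore no independent check, and they were not computed for all entries.

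The unevenness followed a split of the 1 dpci samples into replicates 1 and 2 (library numbers 17 and 18 in the file headings) and replicates 3 and 4 (21 and 22). Folds between samples were taken on CPM + 1, which makes them smaller at low levels. Their median over the 105 genes was 1.26 within the first pair and 1.34 within the second, but 1.97 to 2.07 across the pairs. For the other genes these were 1.18, 1.19 and 1.34 to 1.5. A gene was placed in a class where the means of the pairs differed at least 2-fold and the pairs did not overlap. By this rule 33 of the 105 (31.4%) were higher in replicates 1 and 2, against 4.51% of all 6610 genes at 5 CPM or more. In replicates 3 and 4, 21 of the 105 were higher, against 17.2% of all, so in the authors' CPM this second share was near that of all genes. The other 51 fell in neither class. The direction was 5-fold or more in 21 genes for the first pair and in 8 for the second. With TMM scaling the counts were 38 and 16, against 7.92 and 9.18% of the other genes.

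**Figure D4:**
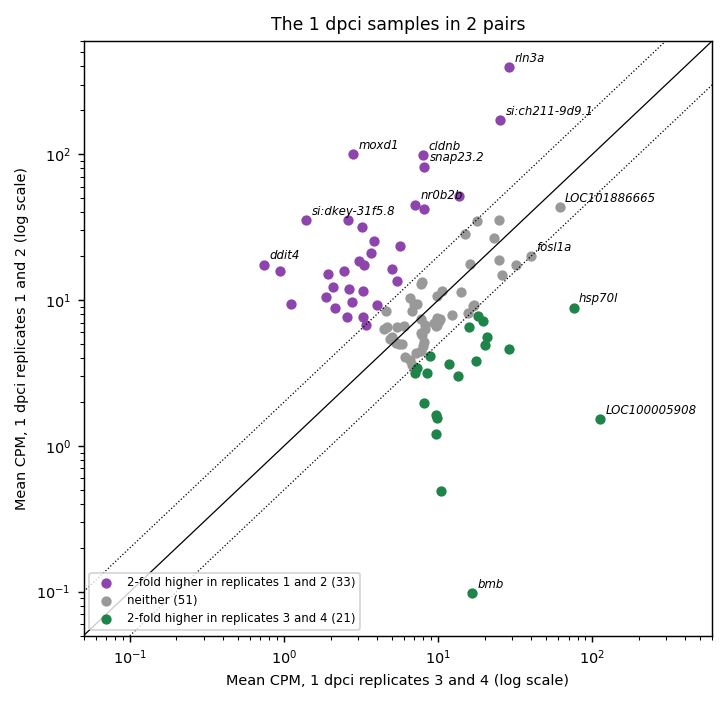
Mean CPM in 1 dpci replicates 3 and 4 (horizontal) against replicates 1 and 2 (vertical), both on log scales, for the 105 genes; the solid line marks equal levels and the dotted lines 2-fold differences. The 33 genes above the band include *rln3a* and *moxd1*, the 21 below include *LOC100005908* and *hsp70l*.

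The cell type lists also differed between the pairs. Hepatocyte genes summed to 63090 and 66100 CPM in replicates 1 and 2 and to 110600 and 99710 CPM in replicates 3 and 4. Of the 9 genes, 6 were higher in both of replicates 3 and 4, *fgb* and *ambp* were lower in both and *cp* overlapped. Biliary genes summed to 261.9 and 172.2 against 1125 and 688.5 CPM, and all 6 were higher in replicates 3 and 4. Neutrophil genes (10 of 15 listed were in the table, and *scpp8* was one of the 105) summed to 2748 and 3372 CPM against 1005 and 1464 CPM, with 509.9 to 1751 CPM in sham. This sum was mostly *lect2l*, with 2552, 2964, 839.4 and 763.5 CPM in replicates 1 to 4, and *cpa5*, whose order was that of the pancreas genes. In sham the sum was mostly *cpa5*, at 436.7 to 1709 CPM, and *lect2l* had 2.84 to 22.5 CPM. The granule genes did not show this split. *mpx* had 2.94, 0.422, 2.195 and 0.769 CPM at 1 dpci and 1.03 to 13.6 CPM in sham. *npsn* was lower in replicates 1 and 2, with 0, 0, 3.11 and 2.89 CPM at 1 dpci, and had 1.77 to 9.37 CPM in sham. Macrophage genes summed to 105.6 and 62.8 CPM against 325.8 and 232.5 CPM, with 9 of the 10 genes higher in replicates 3 and 4 and *spi1b* overlapping. The intestinal list differed through *apoa4b.1* (130.3 and 76.7 against 600.2 and 447.7 CPM). By contrast *apoa4b.2* was slightly higher in replicates 1 and 2, with 121.1 and 142.3 against 120.5 and 84.8 CPM. Each of the other 5 genes had at most 3.16 CPM. Exocrine pancreas genes did not follow the pairs, with 574.6, 4235, 1395 and 7961 CPM in replicates 1 to 4 and 4445 to 23240 CPM in sham. The mitochondrial share was 39.2 and 36.7% in the first pair and 28.7 and 34.4% in the second. None of the listed T, B and NK cell or ovary genes was in the table. The part of these differences in the split of the 105 genes was not tested.

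Silence in sham was less even than the mean implies. All 105 genes were below 5 CPM in every sham sample, which a mean below 1 CPM over 5 samples forces. In sham replicate 5 (library number 1), 50 of them were at 1 to 5 CPM, against 9 to 26 in each of the other sham samples. Sham replicate 5 was the highest sham sample for 43 of the 102 genes with any sham count, and also for 46.5% of the other genes at 5 CPM or more at 1 dpci. Without this sample the rule gave 168 genes, 101 of them among the 105, and 32 of the 168 were at 5 CPM or more in it. Without one of the other sham samples it gave 91 to 124 genes.

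At 3 dpci, 14 of the 105 were still on at 5 CPM or more, 80 were at 1 to 5 CPM and 11 were below 1 CPM. Among all 278 genes silent in sham, which include the 105, 8.99% were on at 3 dpci and 6.83% at 7 dpci. Of the 173 others, which the rule left below 5 CPM at 1 dpci, 11 were on at 3 dpci and 15 at 7 dpci. By 7 dpci, 4 of the 105 were on, all of them also on at 3 dpci, 60 were at 1 to 5 CPM and 41 had returned below 1 CPM. The median gene kept 25.2% of its 1 dpci mean at 3 dpci and 15.05% at 7 dpci. In CPM, 102 genes had a lower mean at 3 dpci than at 1 dpci, and all 105 at 7 dpci, the exceptions at 3 dpci being *si:dkey-22i16.7*, *si:dkey-7i4.24* and *tmem176l.2*. The choice of the genes by a high 1 dpci mean partly fixes these falls and the percentages kept. The share of all entries that fell was not computed. No gene was at 5 CPM or more in all 4 samples at 3 or 7 dpci, and 53 at 3 dpci and 78 at 7 dpci reached it in none.

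**Figure D5:**
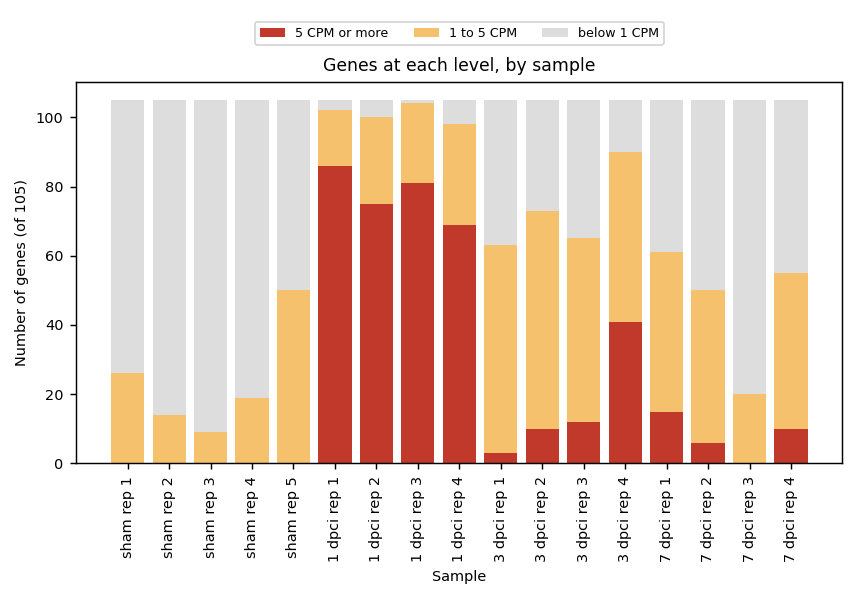
Number of the 105 genes (vertical axis) at 5 CPM or more, at 1 to 5 CPM and below 1 CPM in each of the 17 samples. At 1 dpci 69 to 86 genes are at 5 CPM or more, at 3 dpci 3, 10 and 12 in replicates 1 to 3 and 41 in replicate 4, and at 7 dpci 0 to 15.

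The count at 3 dpci rested in part on 1 sample. Replicate 4 (library number 33) had 41 of the genes at 5 CPM or more, against 3, 10 and 12 in the others, and a summed level of 1025 CPM against 228.3, 257.3 and 267.5 CPM. The 14 genes on at 3 dpci were the 6 that were also on without it, and *si:dkey-22i16.7*, *snap23.2*, *scpp8*, *dse*, *si:ch211-153b23.3*, *fosl1a*, *bcl3* and *rab3db*. Those on without it were *si:ch211-9d9.1*, *mir29a-1*, *si:dkey-7i4.24*, *mir22a*, *si:zfos-2330d3.3* and *tmem176l.2*. The long non-coding RNA *si:dkey-22i16.7*, with no count in sham and 14.9, 5.69, 8.78 and 4.42 CPM at 1 dpci, had 449.2 CPM in that sample and 2.07, 0.308 and 0.812 CPM in the others. It alone made up 43.8% of the sum there, which was 575.4 CPM without it. Replicate 4 was the highest 3 dpci sample for 63 of the 105 genes (60%) and for 60.3% of the other genes at 5 CPM or more at 1 dpci, close to the share in the 105. Its TMM factor was 1.35, against 0.822 to 1.05 in the other 3 dpci samples, and with TMM-scaled library sizes 11 of the 105 were on at 3 dpci, against 14 in the authors' CPM. Within the 105 it was the highest for 27 of the 33 genes that were higher in 1 dpci replicates 1 and 2 and for 6 of the 21 that were higher in replicates 3 and 4. For other genes with such a split these shares were not computed, so they are not read as particular to the 105. The first class summed to 284.3 CPM in replicate 4 against 38.2 to 63.5 CPM in the other 3 dpci samples, and the second to 47.2 against 65.2 to 99.4 CPM.

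A few genes stayed on over more than 1 sample. *si:dkey-7i4.24* had 2.55, 6.75, 31.3 and 26.0 CPM at 1 dpci, 54.9, 4.16, 49.0 and 7.05 CPM at 3 dpci and 43.6, 0.741, 2.65 and 7.08 CPM at 7 dpci, against at most 1.53 CPM in sham. *tmem176l.2*, a transmembrane protein 176-like gene, had 15.2, 2.62, 3.41 and 38.59 CPM at 3 dpci and 5.54, 2.08, 0.165 and 15.5 CPM at 7 dpci, and its 3 dpci mean of 14.9 CPM was above its 1 dpci mean of 10.1 CPM. The other genes on at 7 dpci, *snap23.2* and *si:ch211-9d9.1*, owed this to replicate 1, in which the latter had 21.97 CPM and at most 0.616 CPM in the rest. Without 7 dpci replicate 1, only *tmem176l.2* was on. Some chemokine and AP-1 genes lay near the limit at 3 dpci. There *cxcl8a* had 4.13, 3.39, 3.90 and 6.09 CPM, an even level above every sham sample, and *fosl1a* had 1.72, 4.31, 5.36 and 11.2 CPM. The 3 dpci mean of *CR762483.1* was 4.95 CPM, whereas *ccl34a.4* and *batf3* were lower, at 3.15 and 1.80 CPM. In all, 24 of the 105 had every 3 dpci sample above the highest sham sample, against 5.02% of all entries. At 7 dpci this held for 1, *sh3gl1a* (an endophilin of endocytosis), against 1.57%. The choice of the genes limited their sham values, so nothing is read from these differences.

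Among those that went off, *ascl1a* had at most 0.344 CPM in any sample at 3 or 7 dpci, *s100a1*, a calcium-binding protein with 5.68, 4.22, 27.4 and 12.9 CPM at 1 dpci, had at most 0.593 CPM, and *si:dkey-31f5.8*, the second long non-coding RNA, had at most 1.51 CPM after 37.8, 32.7, 1.83 and 0.962 CPM at 1 dpci. *hsp70l* was at 0.487 to 1.38 CPM at 3 dpci and thus within its sham range.

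The 3 and 7 dpci samples played no part in the choice of the genes, and their difference could be tested. Of the 105, 101 passed edgeR's filter on low counts, the exceptions being *fstl3*, *hsp70l*, *si:dkey-31f5.8* and *slc45a3*, and since the filter read all groups the counts over the 101 are a description. At a log2 fold change of 1.5 and an adjusted P of 0.05, none of the 101 differed between 7 and 3 dpci in the quasi-likelihood test, and 0.0% of all 8412 genes tested did so in either direction. At an unadjusted P of 0.05, 15 were lower at 7 dpci (14.9%) and 1 was higher, against 1.18% and 1.22% of all genes tested. The median log2 fold change was −0.66 in the 101 and 0.04 in all genes tested, and 77 of the 101 (76.2%) were lower at 7 dpci, against 46.3% of all. Without 3 dpci replicate 4 the median was −0.45. The smallest adjusted P among the 101 was 0.398.

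*mir29a-1* had 3.62, 9.24, 8.77 and 2.40 CPM at 3 dpci and 0.671, 0.889, 0.331 and 1.23 CPM at 7 dpci. Its groups did not overlap, its log2 fold change was −2.86 (SE 0.78), and the adjusted P was 0.402 in edgeR and 0.0207 in DESeq2, where it was the only one of the 105 among 31 genes called. *gdf15* (*LOC101886665*) had a log2 fold change of −3.03 (SE 0.99) and *cxcl8a* of −2.24 (SE 0.99), with adjusted P of 0.504 and 0.621 in edgeR. Every 7 dpci sample of *cxcl8a* lay below every 3 dpci sample, with 3.02, 0.593, 0 and 0 CPM at 7 dpci, whereas the samples of *gdf15* overlapped. The only gene higher at 7 dpci at an unadjusted P of 0.05 and a log2 fold change of 1.5 was *tubb6*, a beta-tubulin, with 2.52, 5.49, 0 and 0.924 CPM at 7 dpci and at most 0.641 CPM at 3 dpci. A larger difference than the spread between samples was therefore not established for any single gene in edgeR. No gene of the cell cycle list, with 28 genes in the table, was among the 105. Of the 26 tested, none was higher at 1 dpci than in sham and 3 were lower. Among all genes tested, 4.48% were higher and 9.82% lower, so the lower calls were near the share of all. The count of lower genes was 7 without 1 dpci replicate 3, 1 without 1 dpci replicate 1, 2 or 4, and 0 with column totals.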

How the data were processed

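The authors mapped paired-end reads of 75 bp with HISAT2 2.1.0 and counted them per gene with featureCounts 1.6.0; cutadapt 1.16 is also in the submitters' processing notes, and these name another genome build than the methods, so no coordinates were used. The filter that left 8513 entries and the use of strand in counting are not given in the sources used here. The deposited counts were used as they are, and the deposited CPM equal each count over its column total to within 0.0005.

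The 105 genes were selected from the authors' CPM. The genes, roles and gene lists were chosen with earlier results of these data known. Counts of all 17 samples were fitted in R 4.3.3 with edgeR 4.0.16 (filterByExpr, TMM, quasi-likelihood) with Benjamini-Hochberg adjustment over 8412 genes, a log2 fold change of 1.5 and P of 0.05, and again with DESeq2 1.42.0; the scripts were tested on simulated data. Named are genes in any list, the 15 highest, the 5 most and least even by CV, up to 10 on at 3 or 7 dpci and those beside the limits; others were named after their values were seen, to describe each role. Libraries of a group differed by more than sampling noise, the nearest being 1 dpci replicates 1 and 2 (median chi-square per gene 1.48), so none was taken as a repeat deposit; this does not tell technical from biological replicates. Alternatives were other scalings, limits, filters and tests, the replicate number as a block, and each replicate left out; those of the lists and of the pairs were added after seeing the data. Figures used Python 3.11.15 and matplotlib 3.10.9.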

Additional observations from a re-analysis of the deposited data

Results flagged for a closer look

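Samples far from the others of their group were sought in 59 sets of values of named genes with a group mean of 5 CPM or more and in the summed level of the 105 genes. The limit used has a nominal rate of about 1 set in 20 by chance for normally distributed values; its rate for low counts was not determined. At 3 dpci, replicate 4 stood apart in the summed level (1025 CPM, the next sample 267.5 CPM), in *si:dkey-22i16.7* (449.2 CPM, the next 2.07 CPM), in *si:ch211-9d9.1* (75.9 CPM, the next 12.8 CPM) and in *scpp8* (23.5 CPM, the next 1.54 CPM). For *mir22a* it was replicate 2 (20.96 CPM, the next 3.09 CPM). At 7 dpci, replicate 1 stood apart in *snap23.2* (85.9 CPM, the next 0.154 CPM), *si:ch211-9d9.1* (21.97 CPM, the next 0.616 CPM) and *si:dkey-7i4.24* (43.6 CPM, the next 7.08 CPM).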

How the results depend on the processing

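The 105 genes depended on scaling and limits: 51 genes passed with TMM-scaled library sizes, 52 with DESeq2 size factors and 51 without mitochondrial entries in the totals. All of the first 51, the 52 and 41 of the last 51 were among the 105, and 28 genes passed in all 4 scalings. With a sham limit of 0.5 or 2 CPM there were 37 and 379, with a 1 dpci limit of 2 or 10 CPM 165 and 45, with medians 169, and with every sample past its limit 10. Leaving out each sham or 1 dpci sample gave 91 to 168. At 3 dpci, the count of genes on was 9 with DESeq2 size factors, 29 without mitochondrial entries, 63 at 2 CPM, 4 at 10 CPM, 6 by medians and 6 to 18 with 1 sample left out, and at 7 dpci 6, 35, 2, 0 and 1 to 4 in the last 5 of these settings. Between 7 and 3 dpci, 202 genes, 16 of them among the 105, passed at a log2 fold change of 1.5 and an unadjusted P of 0.05. DESeq2 called 31 and 1 and edgeR with column totals 2 and 0, with 0 to 2 and 0 when 1 sample was left out and a median log2 fold change of the 105 from −1.03 to −0.45 (−0.446). With the replicate number as a block, 0 genes were called, the median was −0.807 and 13 of the 105 passed unadjusted. The numbers did not pair the samples (correlations of deviations −0.294 to 0.221 between 3 and 7 dpci, and not every sample matched its own number best). With the block, 3 counts of list genes moved by over 1.5 times, to 6 higher inflammatory, 6 lower cell cycle and 1 lower matrix gene, and 3 by up to 1.5 times, to 2 lower inflammatory, 5 higher matrix and 19 higher stress genes. Why these values moved was not tested. A median of 18 counts per gene over all sham samples limits the precision there.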
